A study of Homo sapiens with 12 samples.

Results

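The interaction of a SIK3 siRNA with 4 h of TNF was measured in 8 of the 12 RNA libraries of a study in PANC-1, a human pancreatic ductal adenocarcinoma cell line. It asks whether the change in a transcript between unstimulated cells and cells given TNF for 4 h differed when SIK3 had been targeted. The 4 groups held 2 libraries each, called letters B and C: control siRNA (Scr1) unstimulated, control siRNA with TNF 4 h, SIK3 siRNA unstimulated and SIK3 siRNA with TNF 4 h. All cells were PANC-1 WT cells reverse transfected for 72 h with an siRNA, so the control groups carry the transfection too, and recombinant human TNF-α was used at 100 ng/mL. A single SIK3 siRNA (siAS1 s1) and a single control siRNA were used in 1 line, and the labels call the replicates biological. The p-values below measure the spread between these libraries.

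Groups were taken from the words in the deposited files' names, and these words conflict with the titles for 8 of the 12 libraries and for 4 of the 8 used here. The libraries named Scr1 at 4h are titled siCtrl1 with TNF at 30 min. Those named SIK3 and CLM are titled siAS1 with TNF at 30 min. The libraries named Scr1 and CLM and those named SIK3 at 4h have titles that match. CLM is not explained in the labels and was read as unstimulated by elimination, since 30min and 4h are the other 2 words. In all 4 libraries named for SIK3 here the SIK3 transcript was lower than in all 4 named for the control. The titles of these 8 give the same siRNA as the names, so this order cannot decide the conflict over TNF time. Titles and names differ in the siRNA for the libraries named 30min, which are not used here. There the SIK3 transcript was low in those named SIK3, titled siCtrl1, and not in those named Scr1, titled siAS1. The contrast by title takes in those libraries. With groups from the titles the interaction was a different one, and its counts are given at the end.

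SIK3 is a serine/threonine kinase of the salt-inducible family. It phosphorylates CRTC coactivators of CREB and class IIa histone deacetylases, which keeps them in the cytoplasm. TNF binds its receptor TNFR1 and, through TRAF2, RIPK1 and the IKK complex, releases NF-κB dimers to the nucleus, where they induce chemokines, adhesion molecules, survival genes and their own inhibitors. TNF-treated cells also make small amounts of type I or III interferon, which induces interferon-stimulated genes through the ISGF3 complex at a later time.

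The promoter windows of 6 genes show the elements that the gene groups below are known by. They are RefSeq sequences of GRCh38.p14, the 250 bases before the annotated start, read 5′ to 3′ in the direction of the gene, with the matched element in capitals. ICAM1 and SELE, adhesion molecules of the blunted class, have a κB match (GGNNTTTCC, either strand), at chr19:10270870-10271119 on the plus strand and chr1:169734080-169734329 on the minus strand. OAS3 and IFIH1, interferon-stimulated sensors and effectors of antiviral defence, have matches to the interferon response element core (GAAANNGAAA, either strand), at chr12:112938224-112938473 on the plus strand and chr2:162318685-162318934 on the minus strand. HMMR and ANLN, mitotic genes that were higher after TNF with SIK3 siRNA, each have 2 matches to the cell cycle homology region core (TTTGAA, either strand). The nearer match ends 16 bases before the start in HMMR and 14 bases before it in ANLN. Their windows are at chr5:163460382-163460631 and chr7:36389612-36389861, both on the plus strand.
ICAM1: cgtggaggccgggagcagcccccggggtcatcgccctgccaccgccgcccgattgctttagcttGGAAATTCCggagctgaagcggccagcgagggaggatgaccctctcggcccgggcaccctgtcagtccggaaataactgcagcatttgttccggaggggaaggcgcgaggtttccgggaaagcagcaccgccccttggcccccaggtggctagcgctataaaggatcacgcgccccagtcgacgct
SELE: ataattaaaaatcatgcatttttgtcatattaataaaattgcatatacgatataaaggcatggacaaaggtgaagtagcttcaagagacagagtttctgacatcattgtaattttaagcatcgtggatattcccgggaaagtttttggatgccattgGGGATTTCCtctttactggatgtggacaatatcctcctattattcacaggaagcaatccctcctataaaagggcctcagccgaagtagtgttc
OAS3: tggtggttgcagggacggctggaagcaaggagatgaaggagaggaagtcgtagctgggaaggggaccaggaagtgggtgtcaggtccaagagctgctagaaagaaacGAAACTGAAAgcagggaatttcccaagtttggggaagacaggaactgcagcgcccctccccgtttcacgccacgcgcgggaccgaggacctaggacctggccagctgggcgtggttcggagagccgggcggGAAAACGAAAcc
IFIH1: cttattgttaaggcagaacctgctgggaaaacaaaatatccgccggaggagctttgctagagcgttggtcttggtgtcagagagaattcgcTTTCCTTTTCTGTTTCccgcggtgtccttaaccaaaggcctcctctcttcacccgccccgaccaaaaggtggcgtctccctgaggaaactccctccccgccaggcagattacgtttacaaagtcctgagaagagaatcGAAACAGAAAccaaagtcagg
HMMR: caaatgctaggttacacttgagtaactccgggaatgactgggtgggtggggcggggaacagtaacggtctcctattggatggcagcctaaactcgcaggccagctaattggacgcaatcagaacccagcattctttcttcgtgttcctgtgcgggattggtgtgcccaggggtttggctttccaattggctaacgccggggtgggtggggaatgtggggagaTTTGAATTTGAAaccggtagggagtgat
ANLN: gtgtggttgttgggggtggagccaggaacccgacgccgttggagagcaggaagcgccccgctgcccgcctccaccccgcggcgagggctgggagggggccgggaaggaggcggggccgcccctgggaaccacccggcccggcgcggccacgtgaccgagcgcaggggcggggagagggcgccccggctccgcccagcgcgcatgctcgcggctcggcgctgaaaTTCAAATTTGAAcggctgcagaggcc

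Chromosome 8 was left out of this search, and a window off it was found for 11346 of the 16695 genes tested. The κB match was present in 5.94% of these windows, in 12.8% of those of induced genes with a blunted response, and in 12.7% of those of genes that TNF induced with control siRNA and whose interaction was not called. The interferon element was in 2.41% of all windows, in 6.78% of the blunted induced set and in 4.38% of the induced genes not called. The cell cycle element was in 8.41% of all windows, in 18.9% of those of induced genes with an enhanced response and in 20.6% of those of repressed genes that were reversed. The CCAAT box (CCAAT, either strand) was in 35% of all windows and in 49.2% and 50.8% of those same classes. The CRE palindrome of CREB (TGACGTCA) was in 2.93% of all windows, in 1.51% of the blunted induced set and in 5.26% of the enhanced induced set. For the E2F element (TTTGGCGC, either strand) these shares were 0.864%, 0.565% and 2.48%, and for the AP-1 element (TGANTCA, either strand) 3.88%, 5.08% and 4.95%. The E2F shares of the 2 classes are 3 of 531 and 8 of 323 windows. Among the induced genes not called, the CRE was in 3.2%, the E2F element in 0.355% and the AP-1 element in 6.51%, the last above both classes. The 7 elements were searched separately and can overlap, and a match is a run of letters, not a measured site.

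The SIK3 transcript (ENSG00000160584, chromosome 11, 116843402 to 117098437, minus strand) was lower with SIK3 siRNA, and its responses to TNF did not pass. It was at 34.3 and 60.4 CPM (each gene’s share of a library’s counts, on a common scale set by TMM, for letters B and C) with control siRNA unstimulated and at 34.4 and 65.2 CPM after TNF. With SIK3 siRNA it was at 16.3 and 22.4 CPM unstimulated and at 18.3 and 22.8 CPM after TNF. The groups do not overlap between siRNAs, and letter C was the higher of the pair in each group. The log2 difference between siRNAs was −1.25 both unstimulated and after TNF, and its interaction was 0.01 ± 0.16 (log2 ± SE, edgeR quasi-likelihood adjusted p = 0.987). SIK1, the family member that CREB induces, was at 3.01 and 3.96 CPM unstimulated with control siRNA, and SIK3 siRNA libraries had 19.2 and 21.9 CPM. After TNF it was at 1.94 and 2.45 CPM and at 13.7 and 14.4 CPM, lower than unstimulated with both siRNAs, with an interaction of 0.11 ± 0.24 (edgeR adjusted p = 0.843). SIK2 rose with control siRNA, from 32.7 and 41 to 42.2 and 48.5 CPM, and was at 49.5 and 62.4, then 49.9 and 58.3 CPM with SIK3 siRNA (interaction −0.35 ± 0.1, edgeR adjusted p = 0.0296). The SIK2 call was kept when either the control siRNA TNF 4 h library of letter C or the SIK3 siRNA TNF 4 h library of letter B was left out and was lost without any 1 of the other 6 (edgeR adjusted p = 0.0574 to 0.166).

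The TNF response differed between the siRNAs for 1996 of the 16695 genes tested, or 12% (edgeR quasi-likelihood fit of all 12 libraries with the letter as a block, adjusted p under 0.05). The interaction, the log2 response with SIK3 siRNA minus that with control siRNA, was higher for 1075 genes (6.44%) and lower for 921 (5.52%), and its median over all genes tested was 0.03. The sign was the same within letter B and within letter C for 1994 of the 1996, which were called from these same libraries, and for 10736 of all 16695. Without the block 261 genes were called, all of them among the 1996, and 43 of 84 called genes named in the text lost their call. Higher calls without the block fell to 10 of 24 mitotic and 2 of 24 DNA replication genes. Lower calls fell to 3 of 12 adhesion receptors, 1 of 10 chemokines without the ELR motif, 3 of 26 antigen presentation genes and 4 of 30 interferon-stimulated genes. The split depended on the scaling and the fit: 53.9% of calls were higher, against 61.5% with library totals (1305 of 2123), 44.1% with DESeq2 size factors (895 of 2030), 41.5% with the DESeq2 Wald test (653 of 1575) and 41.1% with only the 8 libraries fitted (689 of 1676). Leaving out 1 library gave 1254 to 1900 genes, with 1283 without the control siRNA TNF 4 h library of letter B and 1254 without the SIK3 siRNA unstimulated library of letter C.

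Of the genes called, 1186 (7.10% of those tested) were blunted: TNF changed them with control siRNA and changed them less with SIK3 siRNA. A further 620 (3.71%) were enhanced, with a called response to TNF that was larger with SIK3 siRNA, and 101 (0.605%) were reversed, with called responses of opposite sign. The remaining 89 could not be sorted, as neither condition held. Among the blunted genes 692 were induced and 494 repressed by TNF with control siRNA. The median log2 response of the blunted induced genes was 0.99 with control siRNA and 0.21 with SIK3 siRNA, and 377 of them had no called response left. Blunted repressed genes had medians of −0.55 and 0.00. The enhanced genes comprised 452 induced, with medians of −0.04 and 0.62, and 168 repressed, with medians of 0.06 and −0.30. The class was chosen from these same responses, so the medians describe the sorting and carry no test.

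**Figure D1:**
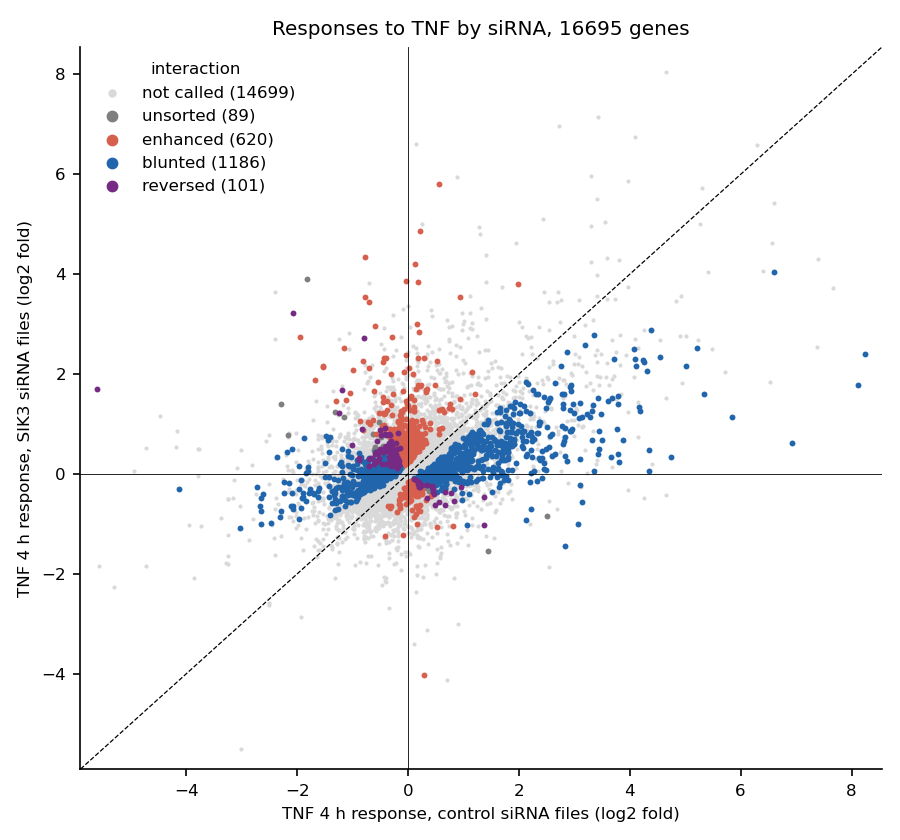
Log2 response to TNF at 4 h with control siRNA (horizontal axis) and with SIK3 siRNA (vertical axis) for the 16695 genes tested, coloured by the class of the interaction, with the dashed line marking equal responses. Blunted genes (1186) lie on either side of the horizontal axis, where the control siRNA response is the larger, enhanced genes (620) on either side of the vertical axis, and the 101 reversed genes at the upper left and lower right.

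TNF itself acted with both siRNAs. It induced 1883 genes with control siRNA (11.3% of those tested) and 2080 with SIK3 siRNA (12.5%), and repressed 2045 (12.2%) and 1562 (9.36%). The genes induced with both numbered 953, which is 50.6% of the first set and 45.8% of the second. Of these 953, the response was the smaller with SIK3 siRNA for 724 (76%), and the interaction was called for 352. Over genes induced with either siRNA, 1684 of 3010 (55.9%) had the smaller response with SIK3 siRNA. Repression was shared by 669 genes, and 488 of those (72.9%) responded less with SIK3 siRNA. The responses were compared after SIK3 siRNA had already changed many transcripts, since 9746 genes (58.4%) differed between siRNAs unstimulated, 29.2% higher and 29.1% lower, and 9813 (58.8%) after TNF, 29.7% higher and 29.1% lower. At 30 min of TNF the same interaction was called for 44 genes (0.264%), 13 higher (0.0779%) and 31 lower (0.186%).

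Sequencing measures differed between the groups. The 12 libraries held 13535825 to 22699756 gene counts, and 3 counts correspond to 0.132 to 0.222 CPM, a limit that covers counting error only. Reads in no annotated gene were 16.5 and 17.1% of all reads in the 2 SIK3 siRNA libraries with TNF 4 h and 8.35 to 10.5% in the other 10. As a share of uniquely placed reads they were 18.7% in letter B of that group, against 10.6 to 12% in the other letter B libraries. In letter C they were 20.9%, against 14.4 to 17.4%. The gap was thus smaller than by all reads in letter C only. Multimapping reads were 10.2% in letter C of that group and 27.8 to 45.3% in the other letter C libraries. The part of these differences in the interaction was not tested beyond 2 added fits: with the multimapping share in place of the letter 1192 genes were called, and with protein-coding genes alone 1983. Ductal line markers, the type PANC-1 belongs to, summed to 6980 to 10223 CPM, against 0.176 to 0.8 CPM for 8 immune, 0.396 to 1.43 for 6 endothelial and 19.3 to 40.2 for 7 fibroblast markers, and FCGR3A, NKG7 and TEK had no count. The ductal list includes VIM, which is also in the mesenchymal list below. Unstimulated with control siRNA, VIM had a mean of 3380.5 CPM (TMM scale), beside 3258.3 for KRT8 and 1939.8 for KRT18. In such bulk samples fewer cells with a transcript and less of it per cell cannot be told apart.

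Adhesion receptors showed the blunting at high expression. Of 12 tested, 7 had a lower interaction, all blunted, where 5.52% of all genes were lower and 7.10% blunted. The list's median log2 response was 1.80 with control siRNA and 0.73 with SIK3 siRNA (median interaction −1.17, against 0.03 over all genes). ICAM1 (ENSG00000090339, chromosome 19, 10270835 to 10286615, plus strand), the leukocyte integrin ligand whose κB match is printed above, stood unstimulated at 351.3 and 424.2 CPM (control siRNA) and 327.7 and 405.0 CPM (SIK3 siRNA). After TNF it reached 2396.9 and 2912.8 CPM where the siRNA was the control and 941.5 and 1319.5 CPM where it was SIK3. The unstimulated groups overlap and the TNF groups do not: the response was 6.84-fold and 3.06-fold (interaction −1.16 ± 0.07, edgeR adjusted p = 8.47e-10). SDC4, a heparan sulphate proteoglycan, went from 504.9 and 517.5 to 1845.4 and 1793.9 CPM with control siRNA and from 474.8 and 509.9 to 720.0 and 819.4 CPM with SIK3 siRNA, again from a like start. CD83, an immunoglobulin-type surface protein, started higher with SIK3 siRNA (94.5 and 86.5 CPM against 62.2 and 51.9) and ended lower (237.1 and 235.5 against 617.2 and 529.5).

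SELE (E-selectin, a leukocyte-tethering lectin, the second κB window above) differed before TNF as well. It was at 1.9 and 2.26 CPM (control siRNA) and 0.376 and 0.34 CPM (SIK3 siRNA), and reached 224.9 and 174.1 CPM against 6.77 and 5.13 CPM after TNF. The SIK3 siRNA values are lower at both times, and the unstimulated ones are close to the counting limit. Its interaction was −2.57 ± 0.55 (edgeR adjusted p = 0.00321), and it lost its call without the SIK3 siRNA unstimulated library of letter B (−2.65, edgeR adjusted p = 0.081).

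**Figure D2:**
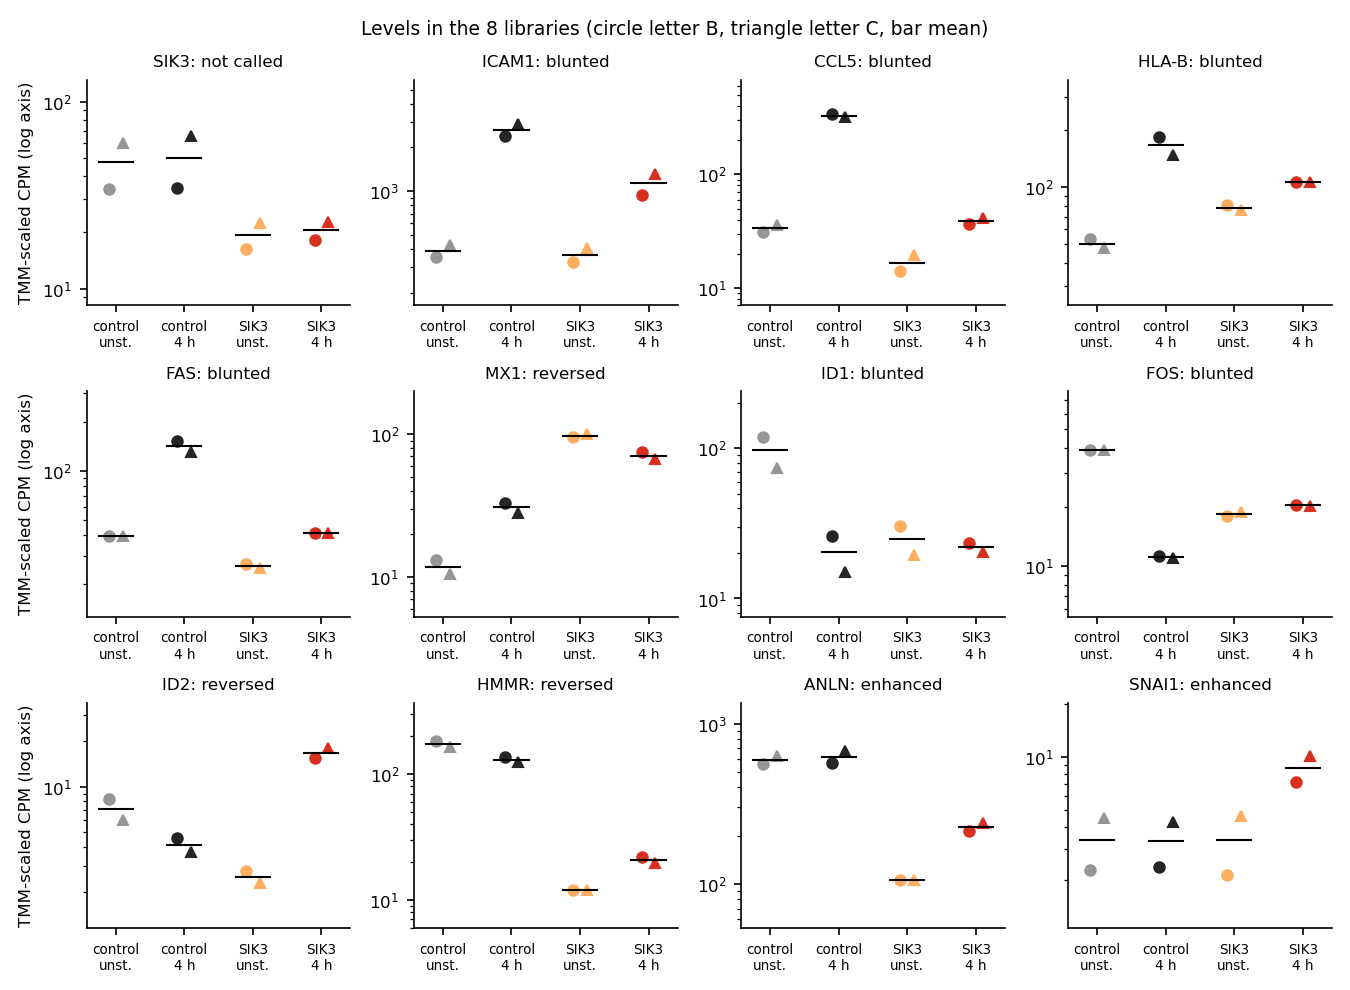
TMM-scaled CPM on a logarithmic axis for 12 genes in each of the 8 libraries, by group (unst., unstimulated), with circles for letter B, triangles for letter C and bars for the mean of the pair. ICAM1 starts at the same level with both siRNAs and ends lower with SIK3 siRNA, HLA-B and MX1 start higher, and HMMR and ANLN start lower with SIK3 siRNA and rise there, while SIK3 itself differs by siRNA at both times.

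In the fit of all 12 libraries no chemokine tested had a higher interaction, and those called were all blunted. The absence of higher calls did not hold in every fit with a library left out. Among CC, CXC and CX3C chemokines without the ELR motif, 6 of 10 tested were blunted (3 with the multimapping share in place of the letter), against 7.10% of all genes. The median response of these 10 was 2.52 with control siRNA and 0.98 with SIK3 siRNA. CCL5 (ENSG00000271503, chromosome 17, 35871491 to 35880793, minus strand), which attracts T cells and NK cells, rose from 30.9 and 36 to 340.6 and 320.4 CPM with control siRNA, and from 14 and 19.4 to 36.8 and 41.4 CPM with SIK3 siRNA. The level after TNF with SIK3 siRNA was little above the unstimulated level with control siRNA, and the responses were 9.96-fold and 2.39-fold (interaction −2.06 ± 0.13, edgeR adjusted p = 1.09e-09). CCL20, the CCR6 ligand, rose from 13.7 and 9.61 to 314.9 and 179.6 CPM with control siRNA and from 20.9 and 11.3 to 132.8 and 104.3 CPM with SIK3 siRNA, so that the unstimulated groups overlap and the TNF groups do not. CCL2, a monocyte attractant, had an interaction of −0.35 ± 0.07, nearer to 0.

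Of the 6 ELR-positive CXC chemokines tested, neutrophil attractants, 3 were blunted, against 7.10% of all genes: CXCL1, CXCL2 and CXCL8. These differ from ICAM1 and CCL5 in where they ended. CXCL8 rose from 25.1 and 17 to 262.4 and 170.8 CPM with control siRNA and from 40 and 32 to 260.5 and 232.5 CPM with SIK3 siRNA, so the TNF groups overlap and the unstimulated ones do not. The mean rise of CXCL8 was 195.6 CPM with control siRNA and 210.5 CPM with SIK3 siRNA. It was therefore blunted on the log2 scale only. Its interaction was −0.56 ± 0.13 (edgeR adjusted p = 0.00455), lost without the control siRNA TNF 4 h library of letter B (−0.42, edgeR adjusted p = 0.0555). CXCL1 went from 27.4 and 34.4 to 97.8 and 110.8 CPM, against 56.2 and 63.9 to 101.8 and 137.8 CPM. CXCL3 did not pass (−0.93 ± 0.38, adjusted p = 0.129 by edgeR) and passed when the control siRNA TNF 4 h library of letter C was left out (−1.17, edgeR adjusted p = 0.0424).

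Among cytokines and growth factors 5 of 18 tested were blunted, against 7.10% of all genes. The count was 3 without the control siRNA unstimulated library of letter B, the control siRNA TNF 4 h library of letter B or the SIK3 siRNA unstimulated library of letter C, and 2 with the multimapping share in place of the letter. CSF1, the macrophage growth factor, was at 287.3 and 424.3, then 978.5 and 1420.3 CPM with control siRNA, and at 330.4 and 488.6, then 635.1 and 1051.8 CPM with SIK3 siRNA. Letter C was the higher in every pair, and the groups after TNF overlap across letters but not within one. TNFSF9, the ligand of the T cell receptor 4-1BB, rose from 0.899 and 0.636 to 6.19 and 5.22 CPM with control siRNA and was at 4.26 and 3.54, then 5.18 and 4.08 CPM with SIK3 siRNA (interaction −2.61 ± 0.35, edgeR adjusted p = 1.86e-05). Its level with SIK3 siRNA before TNF was already 2.32 higher on the log2 scale. LIF, an IL-6 family cytokine, had an interaction of −0.71 ± 0.1, and CSF2, a myeloid growth factor at no more than 9.29 CPM, one of −2.20 ± 0.62. CSF2 lost its call without the control siRNA TNF 4 h library of letter B, the control siRNA unstimulated library of letter B or the SIK3 siRNA unstimulated library of letter C (edgeR adjusted p = 0.0649, 0.177 and 0.212).

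All 5 NF-κB subunit genes rose with both siRNAs, where TNF induced 11.3% of all genes with control siRNA and 12.5% with SIK3 siRNA. Of these 5, 3 had a lower interaction, against 5.52% of all genes: NFKB1 (−0.48 ± 0.07), NFKB2 (−0.34 ± 0.09) and RELB (−0.60 ± 0.11). NFKB1, the p105 and p50 precursor gene, went from 184.7 and 183.1 to 478.6 and 438.3 CPM with control siRNA and from 199.9 and 196.8 to 358.4 and 352.4 CPM with SIK3 siRNA, with no overlap after TNF. RELA, the p65 subunit, did not pass (−0.25 ± 0.09, edgeR adjusted p = 0.0729), though it did with DESeq2 size factors, with the Wald test and with the 8 libraries alone. NFKB2 lost its call without the control siRNA TNF 4 h library of letter B (edgeR adjusted p = 0.152) or the SIK3 siRNA unstimulated library of letter C (edgeR adjusted p = 0.0666).

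Feedback inhibitors of NF-κB were lower for 8 of 13 tested and higher for 1, where 5.52% of all genes were lower and 6.44% higher. The 8 fell to 3 without the control siRNA unstimulated library of letter C, the control siRNA TNF 4 h library of letter B or the SIK3 siRNA unstimulated library of letter C. They fell to 4 without the SIK3 siRNA TNF 4 h library of letter B, to 5 without the SIK3 siRNA unstimulated library of letter B or with library totals, to 3 at an adjusted p under 0.01 and to 1 without the block. TNIP1, an A20-binding protein, was at 131.7 and 166.0, then 398.3 and 476.5 CPM with control siRNA and at 112.2 and 163.0, then 195.0 and 237.5 CPM with SIK3 siRNA. CYLD, a deubiquitinase, had an interaction of −0.91 ± 0.09, against −0.89 ± 0.08 for TNIP1. The exception was NFKBIZ, an atypical nuclear IκB, which reached 106.2 and 111.1 CPM (control siRNA) and 111.8 and 123.5 CPM (SIK3 siRNA), the latter from a lower start (interaction 0.38 ± 0.11, edgeR adjusted p = 0.0252), a call lost without any 1 of the 4 libraries of letter C or the control siRNA TNF 4 h library of letter B (edgeR adjusted p = 0.0697 to 0.182). In receptor signalling 4 of 21 tested were lower and 2 higher, where 5.52% of all genes were lower and 6.44% higher. The 2 higher calls became 0 without the control siRNA TNF 4 h library of letter C, the SIK3 siRNA unstimulated library of letter B or the SIK3 siRNA TNF 4 h library of letter B, and 1 without either control siRNA unstimulated library or the control siRNA TNF 4 h library of letter B. TRAF1, an NF-κB-induced adaptor, rose from 53.5 and 51.9 to 319.5 and 304.1 CPM, against 35.8 and 34.6 to 104.1 and 99.2 CPM with SIK3 siRNA. MAP3K8, a kinase upstream of ERK, had an interaction of −0.79 ± 0.19 and TNFRSF1B, the gene of TNFR2, of −0.44 ± 0.12. The TNFRSF1B call was lost without either SIK3 siRNA unstimulated library, the control siRNA TNF 4 h library of letter B or the control siRNA unstimulated library of letter C (edgeR adjusted p = 0.0527 to 0.19).

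**Figure D3:**
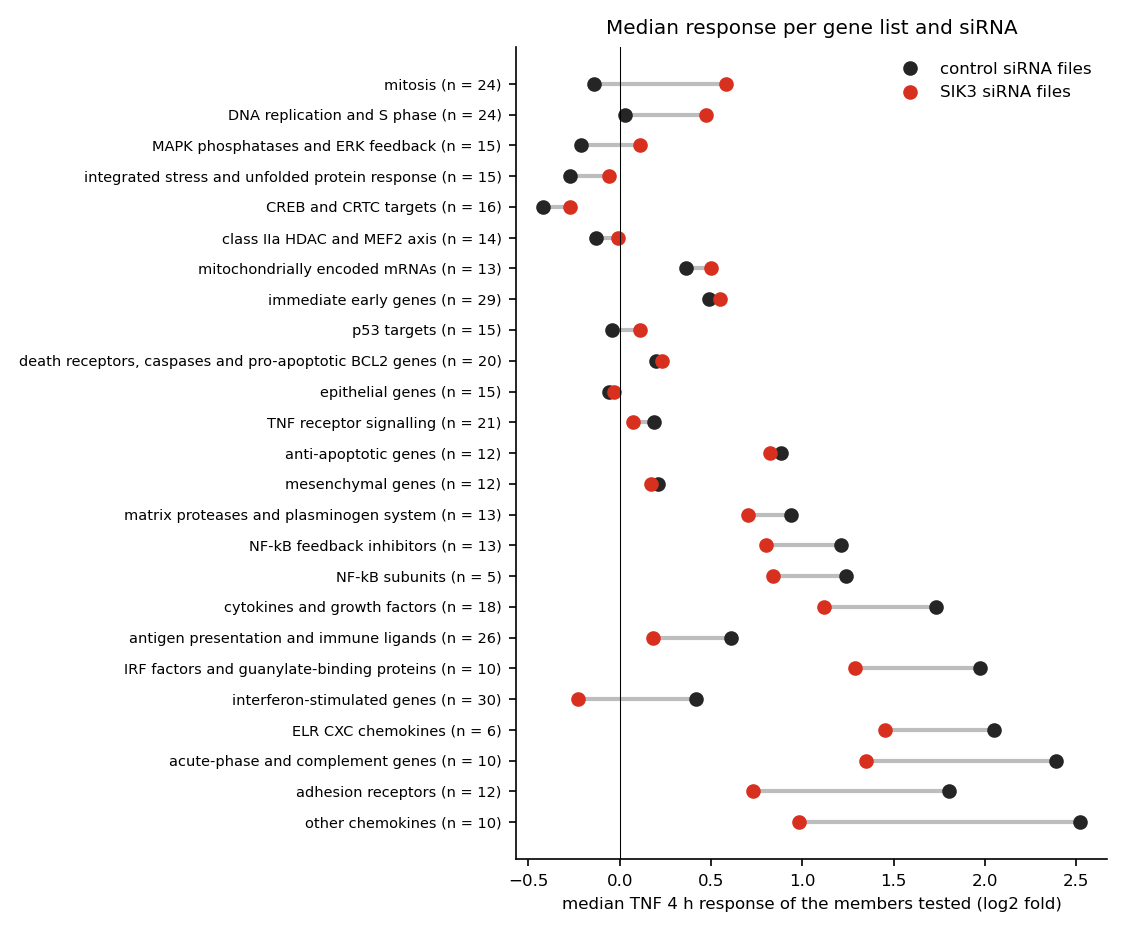
Median log2 response to TNF at 4 h of the tested members of 25 gene lists, with control siRNA (black) and SIK3 siRNA (red), ordered by the median interaction. Chemokines, adhesion receptors, acute-phase genes and interferon-stimulated genes have the larger medians with control siRNA, and mitotic and DNA replication genes with SIK3 siRNA.

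Survival and death genes changed on both sides, where 7.10% of all genes were blunted and 3.71% enhanced. Of 12 anti-apoptotic genes 5 were blunted and 3 enhanced, and of 20 death receptor, caspase and BCL2 family genes 4 were blunted and 2 enhanced (1 enhanced without the letter C library of either SIK3 siRNA group). SOD2, the mitochondrial superoxide dismutase, rose from 363.5 and 305.9 to 2165.5 and 1719.1 CPM with control siRNA and from 685.6 and 570.7 to 1660.5 and 1728.6 CPM with SIK3 siRNA, with overlapping TNF groups. BCL2A1 and BCL2L1, antagonists of mitochondrial apoptosis, had interactions of −0.98 ± 0.09 and −0.77 ± 0.08. FAS, the death receptor (ENSG00000026103, chromosome 10, 88990582 to 89015785, plus strand), rose from 39.6 and 39.6 to 152.9 and 130.4 CPM with control siRNA and from 26.6 and 25.3 to 41.4 and 41.2 CPM with SIK3 siRNA (−1.17 ± 0.11, edgeR adjusted p = 1.55e-07). BCL2L11, the pro-apoptotic BIM gene, had a 4.68-fold and a 1.68-fold response, from overlapping starts of 13.3 and 19.7 CPM and 13 and 16.5 CPM.

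XIAP, an inhibitor of caspases, was of the enhanced class and started low with SIK3 siRNA. It was at 330.9 and 300.6, then 356.2 and 308.0 CPM with control siRNA and rose from 62.9 and 55.7 to 85.1 and 91.2 CPM with SIK3 siRNA (interaction 0.51 ± 0.09, edgeR adjusted p = 0.000465). The level after TNF with SIK3 siRNA stayed under every control siRNA value.

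Antigen presentation genes and immune ligands were lower for 14 of 26 tested, all blunted, where 5.52% of all genes were lower and 7.10% blunted. The median response of the list was 0.61 with control siRNA and 0.18 with SIK3 siRNA. TNF induced 22 of the 26 with control siRNA and 10 with SIK3 siRNA, against 11.3% and 12.5% of all genes. HLA-B (ENSG00000234745, chromosome 6, 31269491 to 31357188, minus strand), a class I heavy chain, rose from 53.2 and 47.6 to 184.7 and 148.7 CPM with control siRNA and from 80.7 and 75.8 to 106.3 and 106.8 CPM with SIK3 siRNA. It started higher and ended lower with SIK3 siRNA, with no overlap at either time (−1.28 ± 0.11, edgeR adjusted p = 4.09e-08). HLA-F, another class I gene, had an interaction of −2.05 ± 0.22. Class I genes are near-identical to each other, so their split of reads is uncertain. PVR, the ligand of the NK and T cell receptors DNAM-1 and TIGIT, rose from 83.3 and 76 to 175.1 and 157.9 CPM with control siRNA and was at 117.3 and 112.5, then 132.0 and 121.3 CPM with SIK3 siRNA (edgeR adjusted p = 0.0845 for that response).

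Interferon-stimulated genes had 15 of 30 tested called, 14 of them lower: 7 were blunted, 4 enhanced and 4 reversed. Over all genes 12% were called, 5.52% lower, 7.10% blunted, 3.71% enhanced and 0.605% reversed. The median response of the list was 0.42 with control siRNA and −0.23 with SIK3 siRNA. TNF induced 15 of the 30 with control siRNA and repressed 14 with SIK3 siRNA, against 11.3% and 9.36% of all genes. Unstimulated, 20 of the 30 were higher with SIK3 siRNA, against 29.2% of all genes. MX1 (ENSG00000157601, chromosome 21, 41420304 to 41459214, plus strand), an antiviral GTPase, rose from 13.1 and 10.5 to 33.2 and 28.3 CPM with control siRNA and fell from 95.1 and 99.9 to 75 and 67 CPM with SIK3 siRNA. Every SIK3 siRNA value is above every control siRNA value, also after the fall (interaction −1.83 ± 0.15, edgeR adjusted p = 2.74e-08). OAS3, an oligoadenylate synthetase, was at 31.5 and 47.7, then 69.9 and 101.4 CPM with control siRNA and at 72.9 and 108.6, then 76.5 and 94.7 CPM with SIK3 siRNA, where the TNF response did not pass. IFIH1, the double-stranded RNA sensor MDA5, went from 78.1 and 68.6 to 227.9 and 209.7 CPM, against 94.5 and 91.3 to 119.9 and 119.1 CPM. PARP14, an ADP-ribosyltransferase, had an interaction of −0.74 ± 0.07.

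The type III interferon genes themselves were among the 5 blunted induced genes with the lowest interactions. IFNL1 was at 1.69 and 3.04, then 24.3 and 25.8 CPM with control siRNA and at 1.88 and 3.2, then 3.58 and 3.36 CPM with SIK3 siRNA (−2.95 ± 0.31, edgeR adjusted p = 1.09e-06). The SIK3 siRNA response of IFNL1 did not pass. IFNL3, which shares reads with a near-identical neighbour and is therefore uncertain, went from 0.634 and 0.424 to 9.35 and 5.61 CPM against 0.836 and 0.612 to 0.797 and 1.1 CPM. IRF1 and GBP1, a transcription factor of interferon genes and a guanylate-binding protein, were 2 of 3 blunted genes of a list of 10, against 7.10% of all genes. With DESeq2 size factors 5 of this list were lower. IRF1 reached 792.2 and 805.0 CPM (control siRNA) and 257.7 and 287.2 CPM (SIK3 siRNA), from starts of 113.9 and 122.6 and of 56.6 and 64.3 CPM (−0.58 ± 0.08).

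The other 3 genes at the head of the blunted induced class were SYT2, KIRREL2 and ELOVL7. ELOVL7, a fatty acid elongase, rose from 5.34 and 5.44 to 104.8 and 89.2 CPM with control siRNA and from 15.1 and 15.2 to 39.6 and 33.6 CPM with SIK3 siRNA (18.1-fold against 2.42-fold, interaction −2.90 ± 0.14). KIRREL2, an immunoglobulin superfamily adhesion protein, was at 1.74 and 1.34, then 17.7 and 15.9 CPM, against 3.51 and 4.08, then 4.71 and 5.13 CPM. SYT2, a synaptotagmin, reached 6.8 and 5.85 CPM against 0.863 and 0.882 CPM from starts near the counting limit, with an interaction of −3.74 ± 0.84. It lost its call without the SIK3 siRNA unstimulated library of letter C (−2.87, edgeR adjusted p = 0.13). Acute-phase and complement genes were blunted for 3 of 10, against 7.10% of all genes. Among them were PTX3, a pentraxin, at −0.57 ± 0.09, and SAA1, which is near-identical to a neighbour, at −1.78 ± 0.37.

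Repressed genes with a blunted response included ID1, FOS, GDF15, PDK4 and BDNF. ID1 (ENSG00000125968, chromosome 20, 31605283 to 31606515, plus strand), an inhibitor of bHLH factors and a BMP target, fell from 119.7 and 74.3 to 25.9 and 15.1 CPM with control siRNA and was at 30.6 and 19.5, then 23.5 and 20.4 CPM with SIK3 siRNA. The unstimulated SIK3 siRNA level overlaps the control siRNA level after TNF, and the interaction was 2.08 ± 0.17 (edgeR adjusted p = 3.39e-08). FOS, the AP-1 subunit, fell from 38.9 and 38.9 to 11.2 and 11 CPM with control siRNA and was at 18 and 18.9, then 20.6 and 20.2 CPM with SIK3 siRNA (1.94 ± 0.18). Over the whole class of 494, 279 were lower unstimulated with SIK3 siRNA and 108 higher, against 29.1% and 29.2% of all genes.

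GDF15, a stress-induced cytokine and p53 target, fell with both siRNAs, from 48.1 and 30.6 to 7.28 and 5.06 CPM and from 37.1 and 27.6 to 19.8 and 18.6 CPM. BDNF, a neurotrophin and CREB target, fell from 3.86 and 3.11 to 0.486 and 0.632 CPM with control siRNA and from 7.15 and 7.01 to 5.44 and 3.58 CPM with SIK3 siRNA. PDK4, a pyruvate dehydrogenase kinase, had an interaction of 1.93 ± 0.37. Over all genes tested 6.44% were higher and 5.52% lower, shares that apply to the list counts that follow. Among CREB and CRTC targets 4 of 16 tested were higher and 1 lower, the latter near that share, with medians of −0.42 with control siRNA and −0.27 with SIK3 siRNA. The 4 became 2 without the control siRNA TNF 4 h library of letter C, without the SIK3 siRNA unstimulated library of letter B or with the DESeq2 Wald test. The single lower call was kept without the control siRNA unstimulated library of letter C or the SIK3 siRNA TNF 4 h library of letter B, and was lost without any 1 of the other 6. Of immediate early genes 7 of 29 were higher and 4 lower, the latter 7 without the SIK3 siRNA TNF 4 h library of letter B.

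ERK feedback genes were called for 8 of 15, 5 higher and 3 lower, where 6.44% of all genes were higher and 5.52% lower. SPRY1, an inhibitor of receptor tyrosine kinase signalling, fell from 31 and 34.6 to 7.28 and 6.48 CPM with control siRNA and from 22 and 20.5 to 13.7 and 18.9 CPM with SIK3 siRNA (1.85 ± 0.18). SPRY4, its relative, was at 65.3 and 127.0, then 61.2 and 113.2 CPM, and rose from 32.6 and 59.6 to 70.9 and 103.1 CPM with SIK3 siRNA, so that its TNF groups overlap. DUSP10, a phosphatase of p38 and JNK, went the other way: it rose from 4.65 and 5.3 to 22.8 and 23.6 CPM with control siRNA, while the level with SIK3 siRNA was 15.2 and 19.1, then 23.1 and 24.3 CPM (−1.74 ± 0.16, edgeR adjusted p = 1.47e-07).

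**Figure D4:**
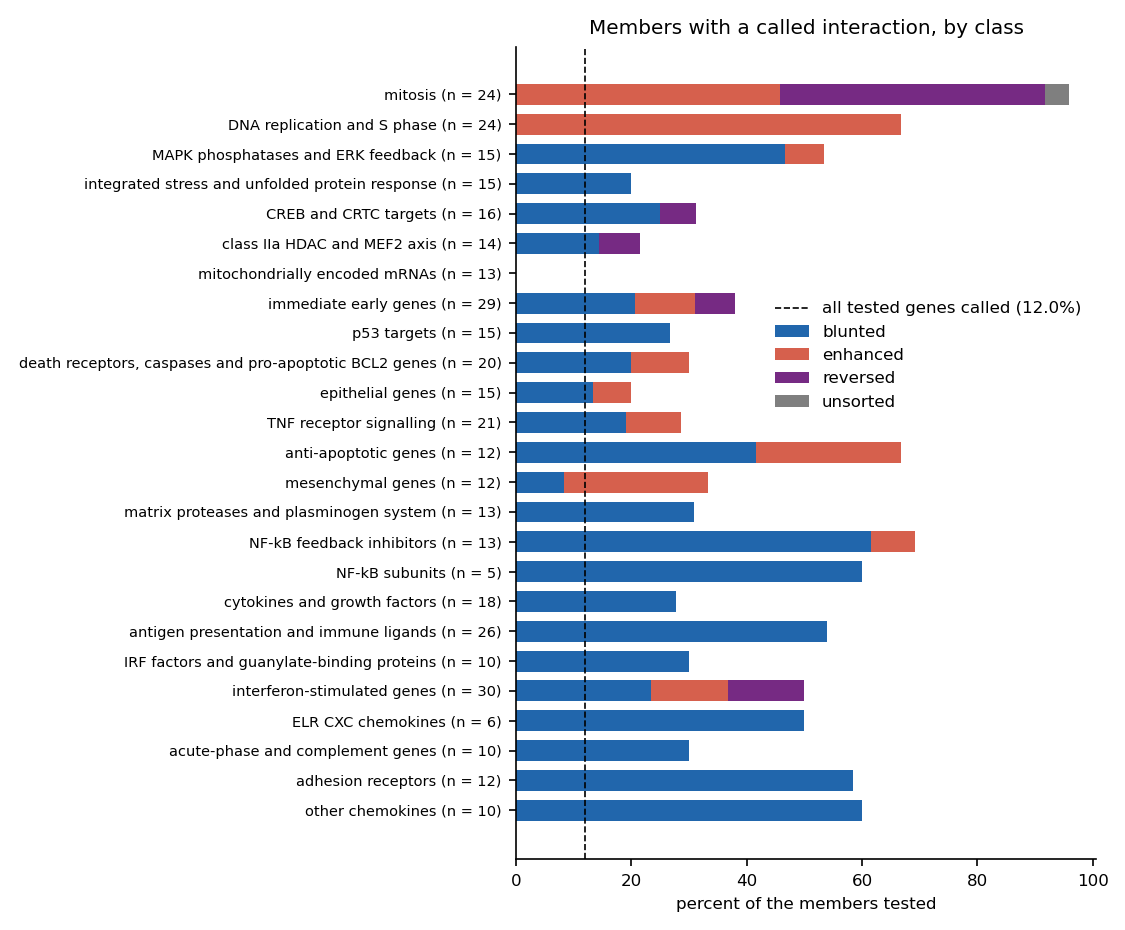
Percent of the tested members of each gene list whose interaction was called, split by class, with the dashed line at the 12% of all tested genes that were called. The mitosis list is made up of enhanced and reversed members (11 each, and 1 unsorted), the DNA replication list of 16 enhanced ones, and the antigen presentation, chemokine and adhesion lists of blunted ones.

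Cell cycle genes formed the main group in the opposite direction. Of 24 mitotic genes 23 had a higher interaction (6.44% of all genes did), 11 enhanced and 11 reversed (3.71% and 0.605% of all genes). The median response was −0.14 with control siRNA and 0.58 with SIK3 siRNA. All 24 were lower with SIK3 siRNA unstimulated and 23 after TNF, by medians of −2.44 and −1.70, against 29.1% of all genes lower at each time. HMMR (ENSG00000072571, chromosome 5, 163460203 to 163491945, plus strand), a spindle-associated hyaluronan receptor, fell from 184.5 and 165.1 to 137.1 and 124.9 CPM with control siRNA and rose from 11.9 and 12 to 21.8 and 19.8 CPM with SIK3 siRNA (1.23 ± 0.10, edgeR adjusted p = 3.39e-08). ANLN, the contractile ring scaffold anillin, was at 555.1 and 624.0, then 565.3 and 671.7 CPM with control siRNA and rose from 105.4 and 105.8 to 212.4 and 239.5 CPM with SIK3 siRNA. In both genes every SIK3 siRNA value stayed below every control siRNA value. CEP55, an abscission protein, and CCNB1, cyclin B1, had interactions of 0.87 ± 0.09 and 0.66 ± 0.07.

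DNA replication genes were higher for 16 of 24 tested, all enhanced (6.44% and 3.71% of all genes), with medians of 0.03 and 0.47. TNF induced 22 of them with SIK3 siRNA and 2 with control siRNA, against 12.5% and 11.3% of all genes. The 2 are near that share. All 24 were lower with SIK3 siRNA at both times, against 29.1% of all genes at each. RRM2, the regulatory ribonucleotide reductase subunit, was at 264.4 and 268.0, then 242.1 and 247.1 CPM with control siRNA and rose from 56.2 and 48.6 to 78.9 and 94.4 CPM with SIK3 siRNA (0.84 ± 0.11, edgeR adjusted p = 1.11e-05). TYMS, thymidylate synthase, and MCM10, a replication initiation factor, had interactions of 0.71 ± 0.11 and 0.75 ± 0.14, and RRM1, the catalytic reductase subunit, of 0.37 ± 0.07. Counts of this list moved with the fit: 10 were higher with only the 8 libraries, with the DESeq2 Wald test or without the control siRNA TNF 4 h library of letter B, 7 with the multimapping share in place of the letter and 2 without the block. Of the mitotic genes 22 were higher in the first 4 of these fits and 10 without the block.

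Low starts and partial recovery were common to the enhanced induced class. Of its 452 genes, 340 were lower with SIK3 siRNA unstimulated and 29 higher, against 29.1% and 29.2% of all genes. The median difference was −1.30 unstimulated and −0.64 after TNF. These differences use the same libraries as the interaction and are no separate evidence. The blunted induced class lay the other way round, with 367 of 692 higher unstimulated and 440 lower after TNF, against 29.2% and 29.1% of all genes.

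The 5 enhanced induced genes with the highest interactions were SSBL4P, CSKMT, H3C1, RNU1-2 and RNU4ATAC, of which 1 is a pseudogene, 1 a replication-dependent histone gene and 2 small nuclear RNA genes. The counts of such genes are uncertain, and RNU1-2 has near-identical copies. CSKMT, a methyltransferase of citrate synthase, was at 1.64 and 0.919, then 2.37 and 2.69 CPM with control siRNA and at 1.09 and 1.02, then 12.7 and 11.7 CPM with SIK3 siRNA. SSBL4P was at no more than 1.09 CPM in the 6 other libraries and at 16.1 and 14.8 CPM with SIK3 siRNA and TNF. H3C1 was at 11.3 and 6.86, then 8.5 and 6.64 CPM, against 1.71 and 1.63, then 5.24 and 4.8 CPM. RNU1-2 and RNU4ATAC had interactions of 1.61 ± 0.33 and 1.57 ± 0.32.

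Genes not annotated as protein-coding made up 19% of the enhanced induced class, 2.31% of the blunted induced class and 22.5% of all genes tested. Over all tested genes of that kind, the median interaction was 0.40 for the 703 that overlap a protein-coding gene on the same strand, 0.24 for the 494 that start within 10 kb past the end of one, and 0.15 for 2433 elsewhere, while 119 without a gene type in the annotation were not placed. The same 2 libraries had the larger share of reads in no annotated gene, 16.5 and 17.1%, and its part in these values was not tested. Whether the counting used strand is not given in the sources used here.

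Enhanced repressed genes were fewer and their changes smaller. CDH6, a cadherin, was at 0.529 and 0.707, then 0.911 and 1.26 CPM with control siRNA and fell from 4.81 and 5.71 to 2.39 and 2.7 CPM with SIK3 siRNA (−1.86 ± 0.47). Its call was lost without the control siRNA TNF 4 h library of letter C (edgeR adjusted p = 0.0675). GRHL3, an epithelial transcription factor, was at 7.72 and 11.4, then 6.92 and 11.1 CPM and fell from 20.1 and 27 to 8.43 and 11.9 CPM with SIK3 siRNA, where its TNF level overlaps the control siRNA values (−1.14 ± 0.18, edgeR adjusted p = 0.000109). ARMCX1 had an interaction of −0.97 ± 0.2, and the pseudogenes RPS12P23 and PTMAP4, whose reads may belong to their parent genes, of −1.17 ± 0.33 and −0.96 ± 0.3. These pseudogene calls were lost in 5 and 4 of the 8 fits with a library left out, in both cases without the control siRNA TNF 4 h, control siRNA unstimulated and SIK3 siRNA unstimulated libraries of letter C (edgeR adjusted p = 0.0569 to 0.278). In this class 118 of 168 genes were higher with SIK3 siRNA unstimulated, against 29.2% of all genes.

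Reversed genes comprised 23 that TNF induced and 78 that it repressed with control siRNA. ID2 (ENSG00000115738, chromosome 2, 8678845 to 8684453, plus strand), a relative of ID1, fell from 8.3 and 6.01 to 4.55 and 3.72 CPM with control siRNA and rose from 2.76 and 2.31 to 15.5 and 17.9 CPM with SIK3 siRNA. The 2 libraries with SIK3 siRNA and TNF are above the other 6, and the interaction was 3.52 ± 0.27 (edgeR adjusted p = 1.68e-08). TOB1, an antiproliferative adaptor, went from 9.04 and 11 to 4.86 and 6.48 CPM and from 8.15 and 10.4 to 15.8 and 18.7 CPM. ANGPTL4, a lipoprotein lipase inhibitor, fell from 65.4 and 62.5 to 32.8 and 30.8 CPM and rose from 81.1 and 81.1 to 132.9 and 108.1 CPM. OIP5 and ARHGEF39, a centromere protein and a guanine nucleotide exchange factor, had interactions of 1.38 ± 0.25 and 1.34 ± 0.22.

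On the induced side MX1 was followed by USP27X, TTC39A, CRISPLD2 and AP1S3. AP1S3, a clathrin adaptor subunit, rose from 33.7 and 35.1 to 60.8 and 55.9 CPM with control siRNA and fell from 71.6 and 66.9 to 54.6 and 51.8 CPM with SIK3 siRNA, so that the 2 siRNAs met after TNF (−1.15 ± 0.10). CRISPLD2, a secreted protein, rose from 11.3 and 14.9 to 22.2 and 28.4 CPM and fell from 41.4 and 50.3 to 35.4 and 41.5 CPM. The deubiquitinase USP27X had an interaction of −1.37 ± 0.21 and TTC39A of −1.29 ± 0.25. Of the 23 genes, 20 were higher unstimulated with SIK3 siRNA, and of the 78 repressed ones 56 were lower, against 29.2% and 29.1% of all genes.

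**Figure D5:**
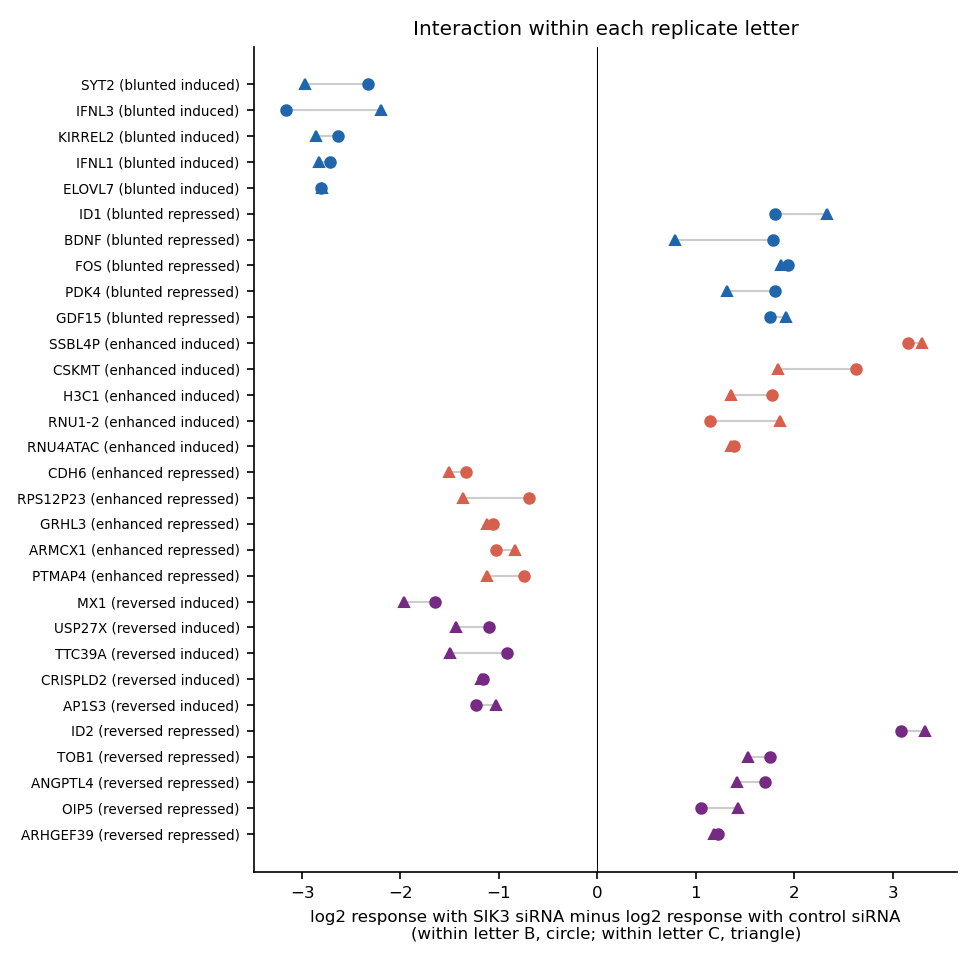
Interaction of the 30 genes named by class, computed within letter B (circle) and within letter C (triangle) from log2(CPM + 0.5), where each value uses 4 libraries. The 2 letters have the same sign for all 30, which the rule for naming them required.

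Cell identity lists held calls in both directions. Of 15 epithelial genes 1 was higher and 2 lower, and of 12 mesenchymal genes 2 were higher and 2 lower, where 6.44% of all genes were higher and 5.52% lower, so nothing is read from these counts. KRT8 ranged from 2922.9 to 3541.4 CPM over the 8 libraries (0.13 ± 0.06, edgeR adjusted p = 0.198). KRT18 had an interaction of 0.23 ± 0.06 that lost its call with the DESeq2 Wald test, with only the 8 libraries, with the multimapping share, without the block (edgeR adjusted p = 0.531) and in 4 of the 8 fits with a library left out, those without either control siRNA TNF 4 h library, without the control siRNA unstimulated library of letter B or without the SIK3 siRNA unstimulated library of letter B (edgeR adjusted p = 0.0534 to 0.088). VIM, vimentin, went from 3381.5 and 3379.5 to 3998.1 and 3968.1 CPM with control siRNA and from 1411.8 and 1398.4 to 2134.4 and 2320.1 CPM with SIK3 siRNA (0.43 ± 0.05). SNAI1, a repressor of epithelial genes, was at 2.13 to 4.63 CPM in the other 6 libraries and at 7.23 and 10.1 CPM with SIK3 siRNA and TNF (1.43 ± 0.33).

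By the titles, the same contrast called 3374 genes, of which 1002 were also called by file name and 533 of those in the same direction. Antigen presentation genes then had 18 higher and 1 lower of 26, against 14 lower by file name, and mitotic genes 13 higher of 24. The direction of the immune gene results therefore rests on the file names.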

How the data were processed

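Total RNA of PANC-1 cells was extracted with DNase I digestion and made into ScriptSeq libraries, per the labels' protocols. The authors deposited raw read counts for each gene, made with STAR 2.05b on GRCh38, and edgeR is named too, per the submitters' processing notes. The strand setting and annotation release are not given in the sources used here. Column 2 of each table was used, its first 4 rows (reads in no gene) were left out, and 60669 identifiers remained, 56927 of them with a symbol in GENCODE 29 or the symbol tables.

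Groups were the words in the files' names, against the titles for 8 of 12 libraries. Genes were filtered with filterByExpr (minimum count 10), which kept 16695, and library sizes were scaled by TMM. Counts were fitted in R 4.3.3 with edgeR 4.0.16 (quasi-likelihood, 6 groups and the letter, 5 residual degrees of freedom), with Benjamini-Hochberg adjustment over all genes tested (threshold 0.05). All 12 libraries share 1 estimate of spread. The letter was kept as a block because it pairs the libraries: deviations of letter B from the group mean correlated by 0.35 to 0.53 over genes in all 15 pairs of groups, median 0.42, where genes are not independent. The chi-square of replicates was 15.7 to 32.3 per degree of freedom, so no pair matched within counting noise.

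A called gene was reversed where both responses were called with opposite sign, blunted where the control siRNA response was called and larger, enhanced where the SIK3 siRNA response was called and larger, and otherwise unsorted. Named genes were taken from the 5 with the largest interaction per class and direction (mean CPM of at least 5 in a group, same sign within each letter by log2 of CPM + 0.5), from the 4 members of each list with the smallest p, and SIK1, SIK2 and SIK3. The members, lists and rules were chosen with earlier results of these data known. Errors are standard errors of log2 values. Promoters came from RefSeq GRCh38.p14. Alternatives were no replicate block, DESeq2 1.42.0 size factors and Wald test, library totals, limma 3.58.1 voom, no filter, a stricter one (4 or more libraries at a CPM of 1 or above), the 8 libraries alone, an adjusted p under 0.01, groups from titles, and each library left out. Some results are not reported here. The fit was tested on simulated data. Figures were drawn in Python 3.11.15.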

Additional observations from a re-analysis of the deposited data

Results flagged for a closer look

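The TNF 4 h response differed between the siRNAs, by the interaction term itself, for 1996 genes (edgeR quasi-likelihood), which makes each gene named by class a result to look at again. The log2 interactions of blunted induced genes were SYT2 −3.74, IFNL3 −3.39, KIRREL2 −3.02, IFNL1 −2.95 and ELOVL7 −2.90. Blunted repressed genes had log2 interactions of ID1 2.08, BDNF 2.01, FOS 1.94, PDK4 1.93 and GDF15 1.93, enhanced induced genes of SSBL4P 3.67, CSKMT 2.61, H3C1 1.88, RNU1-2 1.61 and RNU4ATAC 1.57, and enhanced repressed genes of CDH6 −1.86, RPS12P23 −1.17, GRHL3 −1.14, ARMCX1 −0.97 and PTMAP4 −0.96. Among reversed genes the values were MX1 −1.83, USP27X −1.37, TTC39A −1.29, CRISPLD2 −1.21 and AP1S3 −1.15 on the induced side and ID2 3.52, TOB1 1.72, ANGPTL4 1.58, OIP5 1.38 and ARHGEF39 1.34 on the repressed side.

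Signals outside the main measurement were also present. Reads in no annotated gene made up 16.5% and 17.1% of the SIK3 siRNA libraries with TNF 4 h, letters B and C, above the 8.35 to 10.5% of the other 10 libraries. As a share of uniquely placed reads the values were 18.7% in letter B, against 10.6 to 12% in its other libraries, and 20.9% in letter C, against 14.4 to 17.4%. At 30 min, in libraries outside the 4 h comparison together with the same unstimulated ones, the interaction was called for 44 genes (0.264% of those tested), 13 higher and 31 lower. The 4 libraries of that time point have titles that conflict with their file names.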

How the results depend on the processing

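The file names decide the direction of many results. With groups from the titles and the replicate block 3374 genes were called, 1781 higher and 1593 lower, with 1699 enhanced and 364 reversed responses, and the log2 interaction turned sign for these named genes: BCL2A1 1.93, BCL2L1 1.11, BDNF −0.53, CCL2 1.42, CCL20 1.36, CCL5 1.80, CD83 2.06, CSF1 1.88, CYLD 1.64, DUSP10 1.05, ELOVL7 2.38, FAS 1.28, FOS −2.67, GBP1 2.28, GDF15 −2.17, HLA-B 0.86, HLA-F 1.41, ICAM1 2.18, IFIH1 0.65, IRF1 0.12, KIRREL2 0.30, NFKB1 1.56, NFKB2 1.27, NFKBIZ −2.83, OAS3 0.25, PARP14 0.46, PDK4 −1.65, PTX3 2.06, PVR 0.51, RELA 0.42, RELB 1.50, SAA1 2.30, SDC4 0.82, SELE 0.69, SIK1 −1.02, SIK3 −0.25, SOD2 1.90, SPRY1 −0.65, SYT2 1.78, TNFRSF1B 0.51, TNIP1 1.23, TOB1 −1.14, TRAF1 3.41. Without a replicate block 261 genes were called (120 higher, 141 lower), with 199 blunted, 55 enhanced and 6 reversed. At an adjusted p under 0.01 there were 1117 (570 higher, 547 lower; 722, 310 and 38 by class). The multimapping share in place of the letter, chosen after seeing the data like the fit of protein-coding genes alone, left 1192 (672 higher, 520 lower; 719, 371 and 62 by class). The DESeq2 Wald test gave 653 higher and 52 reversed, and the 8 libraries alone 689 higher and 67 reversed. Leaving out each library in turn gave 1254 to 1900 genes (656 to 944 higher, 594 to 956 lower), 778 to 1083 blunted, 307 to 609 enhanced and 52 to 107 reversed. The lowest of these counts, except those of blunted and lower calls, came without the SIK3 siRNA unstimulated library of letter C, and those 2 came without the control siRNA TNF 4 h library of letter B. The cause of these changes was not tested, other than fewer samples or a stricter threshold by construction. Size factors, library totals, limma voom and both other filters kept each of these counts within 1.5 times.

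SIK3, whose interaction of 0.01 was not called, was at −0.03 with DESeq2 size factors, −0.02 by the Wald test, −0.01 with voom, −0.04 with the 8 libraries and −0.18 to 0.21 with each library left out in turn. SIK1 ranged from −0.01 to 0.21 with each library left out, its sign turning without the SIK3 siRNA TNF 4 h library of letter B, and RELA was at 0.14 with the multimapping share. With the same calls but sizes compared on the CPM scale, 677 of 692 blunted induced and 403 of 452 enhanced induced genes kept their class. The 101 reversed genes are sorted by the signs of both called responses. The scale leaves these signs as they were, so it is no check of that class. The counting limit of 0.132 to 0.222 CPM bears on SYT2, SELE and IFNL3 before TNF.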

Other observations

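At 30 min the genes whose response differed included several that are described above at 4 h. TNFSF9 had a 30 min log2 interaction of −2.23, IFNL1 of −2.07, CXCL2 of −1.28, CXCL1 of −1.22, CCL20 of −1.12 and CXCL8 of −0.96, all of the blunted class at 4 h. NFKBIZ stood at −0.94 at 30 min and 0.38 at 4 h, and FOS at 0.89 and 1.94. The 30 min and 4 h values share the unstimulated libraries.

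Further gene lists were p53 targets, with 3 of 15 higher and 1 lower, the integrated stress and unfolded protein response, with 3 of 15 higher, class IIa HDAC and MEF2 genes, with 2 of 14 higher and 1 lower, and matrix proteases and plasminogen system genes, with 1 of 13 higher and 3 lower. Over all genes 6.44% were higher and 5.52% lower, so the single calls are near the background. Of these single calls, that of the class IIa HDAC list was lost in 6 of the 8 fits with a library left out: it was kept without the control siRNA TNF 4 h library of letter C or the SIK3 siRNA TNF 4 h library of letter B. The 3 lower matrix genes became 5 without the former, and the count of lower p53 targets became 2 without the control siRNA unstimulated library of letter B or the SIK3 siRNA TNF 4 h library of letter C. Ductal line markers had 3 of 7 higher (VIM, SOX9 and KRT18), and 0 without the block. Fibroblast markers had 5 tested members and endothelial markers 1, and mitochondrially encoded mRNAs had 13, with median interactions of −0.09, −0.97 and 0.04.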
